A study of Mus musculus with 108 samples.

Results

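Meiotic maturation changes the polyadenylated transcriptome of the mouse oocyte, and the values below describe how far that change differed between oocytes with and without Exosc10. For each gene the difference is an interaction. It is the log2 change from the GV stage to the MII stage in knockout (cKO) oocytes minus the same change in control oocytes. All polyA gene count libraries of these 2 stages entered, 45 of the 108 samples of the series, and each library is 1 oocyte. They came from 10 of the 16 females of the polyA libraries, and 18010 of 55573 gene identifiers had enough counts to be tested. A positive interaction means that a transcript fell less, or rose more, in cKO oocytes than in controls.

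The GV stage is the fully grown oocyte with an intact germinal vesicle (its nucleus), arrested in prophase of meiosis I, and the MII stage is the mature egg arrested at metaphase of meiosis II. The GV control group held 7 oocytes, 3 from female V856 and 4 from female V889. The GV cKO group held 15 oocytes, 5 from V857 and 10 from V888. The MII control group held 8 oocytes, 2 from V836, 4 from V853 and 2 from V896. The MII cKO group held 15 oocytes, 2 from V841, 2 from V842 and 11 from V897. The genotype is labelled as an oocyte-specific knockout of Exosc10 against control, and strain, age and the Cre driver are not given in the sources used here. GV oocytes were held in M2 medium outside the body and MII eggs were taken from oviducts, so stage and handling cannot be told apart, in either genotype. Each female gave oocytes of 1 stage and 1 genotype. The female was therefore the replicate, and counts of her oocytes were summed before testing.

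Exosc10 is the gene of a 3′-to-5′ exoribonuclease of the nuclear RNA exosome, which trims and degrades many kinds of nuclear RNA. A fully grown oocyte is transcriptionally silent, so its messages are stored ones. During maturation, dormant messages gain long poly(A) tails and are translated, while many messages of growth, such as those of ribosomes and mitochondria, are deadenylated and degraded. PolyA libraries capture RNA by its tail, so loss of a message and shortening of its tail cannot be told apart in them.

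Total gene counts were 5381816 to 8735914 per oocyte and 14463771 to 88281467 per female. Values are TMM-scaled CPM, counts scaled to a common library size, which state each transcript relative to the others of its library and not per oocyte. Exosc10 (chromosome 4, 148558429 to 148582401, mm10) was at 43.0 to 55.6 CPM in GV control oocytes and at 0 to 3.26 CPM in GV cKO oocytes. At MII it was at 45.8 to 166 CPM in controls and at 0 to 2.25 CPM in cKO oocytes. Its log2 genotype difference was −5.47 at GV (edgeR adjusted p 0.00711) and −7.52 at MII (7.46e-05), so every library matched its genotype label. All 17 oocyte markers matched in the files were detected in each of the 4 groups. Summed cumulus and granulosa markers were at 240 to 335 CPM in GV controls, 238 to 295 in GV cKO, 565 to 696 in MII controls and 456 to 605 in MII cKO oocytes, mostly from Serpine2. Ereg was at 0 in all 4 groups, and Fshr and Inha were at 0 in all MII controls. Inha had a median of 4.14 CPM in GV cKO and of 0.30 CPM in GV control oocytes, with overlapping ranges, and Fshr reached 8.30 CPM (median 1.91) and 0.87 CPM (median 0). Cyp19a1, of the same markers, went the other way, with medians of 19.4 CPM in GV cKO and 38.6 CPM in GV control oocytes. At MII its medians were 74.6 CPM in cKO and 94.4 CPM in control eggs. Summed oviduct markers at MII were at 218 to 346 CPM in cKO and 245 to 489 CPM in control eggs, mostly from Cdh1, while Ovgp1 reached 13.6 CPM and 1.97 CPM. Genes with at least 1 count numbered 18098 to 19626 in GV controls, 20149 to 21753 in GV cKO, 13699 to 16389 in MII controls and 16383 to 18025 in MII cKO oocytes. The part of marker levels and of detected gene numbers in the results was not tested.

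The change from GV to MII was called as different between genotypes for 13 genes. With edgeR's quasi-likelihood test on female sums, 6936 genes (38.5%) changed in controls, 2989 higher and 3947 lower at MII. In cKO oocytes 7145 genes (39.7%) changed, 3232 higher and 3913 lower (17.9% and 21.7%). The changes of the genotypes, which share no samples, had a Spearman rho of 0.71 across the 18010 genes, given as a description because genes are not independent. The interaction was called (Benjamini-Hochberg adjusted p under 0.05) for 13 genes, 0.0722% of those tested, and was positive in all 13. No gene was called with a negative interaction by this fit, while 901 had one at an unadjusted p under 0.05 (5.0%), beside 1338 with a positive one (7.43%). The interaction was above 0 in 54.8% of all tested genes, with a median of 0.10. It was at least 1 in 17.6% of genes and at most −1 in 14.2%, most of them not called.

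The 13 genes had 1 main form of difference, a fall in controls that was smaller or missing in cKO oocytes. These counts use the same samples as the interaction and describe it. In controls 12 of the 13 fell, where 21.9% of all genes did. Of those 12, 6 showed no called change in cKO oocytes, 3 fell less, and 3 rose. Gm17751 alone was not called in controls and rose in cKO oocytes. The median change of the 13 was −2.26 in controls and 0.15 in cKO oocytes. With library totals as the scale the cKO median was −0.38, so its sign depends on the TMM factors. All 13 were higher in cKO than in control eggs at MII, a direction called in 7.07% of tested genes, by log2 values of 0.92 to 3.09. At GV, Dppa5a was higher in cKO oocytes (1.13% of genes were), Gm17751 was lower (2.04%), and the other 11 were not called. A call in either direction was made for 3.16% of genes at GV and 12.1% at MII, where 5.06% were lower in cKO eggs. The count of calls depends on the fit, as given after the single genes.

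**Figure D1:**
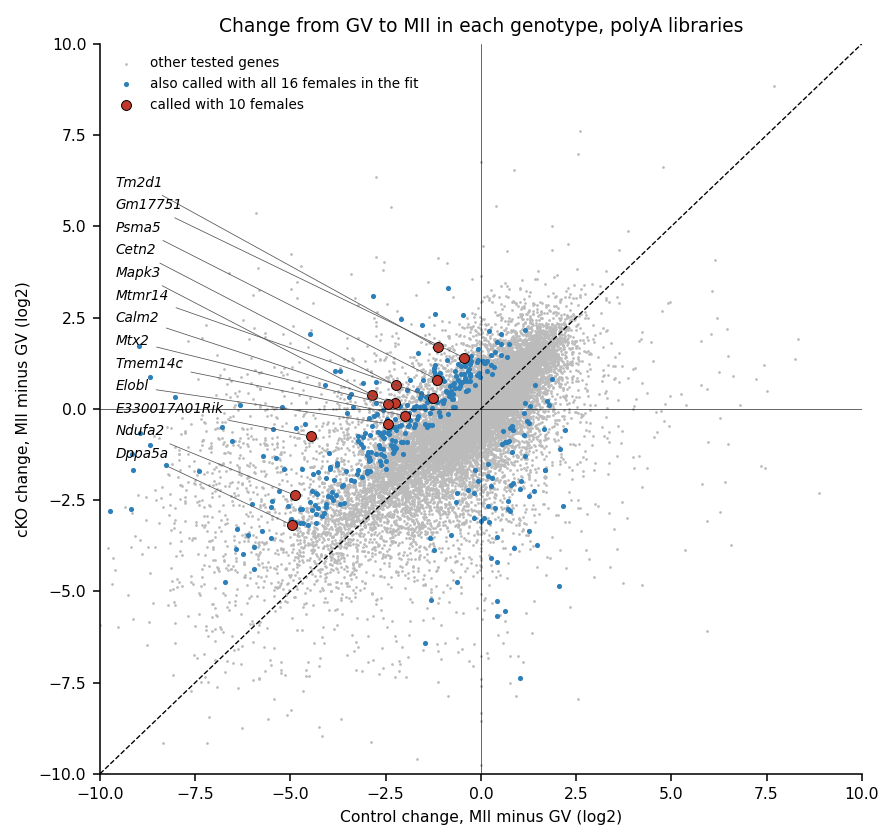
Each point is a tested gene, placed by its log2 change from GV to MII in control oocytes (horizontal axis) and in cKO oocytes (vertical axis), polyA libraries, female sums. The dashed line marks equal change, the 13 called genes (red) all lie above it, and genes called when 16 females enter the fit (blue) lie on both sides. 10 genes beyond 10 log2 units are not drawn.

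Mapk3, Calm2 and Cetn2 encode a kinase and calcium-binding proteins. Mapk3 (chromosome 7, 126759601 to 126765819) is the kinase ERK1, which acts below Mos in the pathway that holds the egg at metaphase II. It was at 271 to 335 CPM (median 292) in GV controls and at 17.3 to 63.8 CPM (median 35.4) in MII controls. In cKO oocytes it was at 94.1 to 169 CPM (median 144) at GV and at 51.3 to 252 CPM (median 147) at MII. At GV every cKO oocyte was therefore below every control, and at MII 13 of 15 cKO eggs were above every control. The control change was −2.85, the cKO change of 0.38 was not called, and the interaction was 3.23 (SE 0.44, edgeR adjusted p 0.0241).

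Calm2 (chromosome 17, 87433412 to 87446935) is a gene of calmodulin, the calcium sensor. It ranged from 221 to 380 CPM (median 259) in GV controls and from 38.5 to 82.8 CPM (median 50.4) in MII controls. In cKO oocytes it was at 194 to 389 CPM (median 286) at GV and at 142 to 393 CPM (median 329) at MII. The cKO oocytes thus held about the same range at both stages, and at MII they did not overlap with controls. The interaction of Calm2 was 2.41 (SE 0.30, edgeR adjusted p 0.0147). Calm3, another calmodulin gene, had an interaction of 0.97 (SE 0.49), not called. Members of such families share sequence, so reads may have been divided among them.

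Cetn2 (chromosome X, 72913532 to 72918411) is the gene of centrin 2, a calcium-binding protein of centrioles and of DNA repair. Its levels at GV overlapped, 70.4 to 158 CPM (median 95.4) in controls and 79.7 to 146 CPM (median 106) in cKO oocytes. At MII they were apart, 15.6 to 27.3 CPM (median 22.4) in controls and 79.4 to 300 CPM (median 174) in cKO eggs. Its log2 change was −2.24 in controls, a fall, and 0.64 in cKO oocytes, a rise. Its interaction was 2.88 (SE 0.31, edgeR adjusted p 0.00709).

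Ndufa2, Mtx2 and Tmem14c encode mitochondrial proteins and are described together, although only Ndufa2 belongs to a gene list used here. Ndufa2 encodes a subunit of respiratory complex I (chromosome 18, 36742332 to 36744557). It was at 167 to 229 CPM (median 190) in GV controls and 108 to 233 CPM (median 169) in GV cKO oocytes. It then fell in both genotypes, to 3.47 to 9.87 CPM (median 6.01) in MII controls and to 22.9 to 35.7 CPM (median 31.8) in MII cKO eggs. All 15 cKO eggs were above every control egg. The log2 changes were −4.88 and −2.37, and the interaction was 2.51 (SE 0.28, edgeR adjusted p 0.00759).

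Mtx2 encodes metaxin 2, a protein of the outer mitochondrial membrane (chromosome 2, 74825803 to 74878431). It held 39.3 to 62.2 CPM (median 54.9) in GV controls, 28.3 to 71.7 (median 41.9) in GV cKO, 2.43 to 12.9 (median 9.84) in MII controls and 13.9 to 76.8 (median 50.2) in MII cKO oocytes. Control eggs were the only group below the others, and their highest value lay under the lowest cKO egg. The interaction of Mtx2 was 2.58 (SE 0.39, edgeR adjusted p 0.0431). Tmem14c encodes a protein of the inner mitochondrial membrane needed for haem synthesis (chromosome 13, 41016292 to 41022586). Its medians were 855 CPM in GV controls, 585 in GV cKO, 195 in MII controls and 520 in MII cKO oocytes, and 14 of 15 cKO eggs were above every control egg. Its interaction was 1.82 (SE 0.27, edgeR adjusted p 0.0431).

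Psma5 and Elobl belong by name to protein turnover. Psma5, an alpha subunit of the 20S proteasome core (chromosome 3, 108256926 to 108279974), was at 78.5 to 128 CPM in GV controls and at 41.6 to 76.9 CPM in GV cKO oocytes, with no overlap. At MII the order was the opposite, 28.8 to 59.4 CPM in controls and 53.7 to 133 CPM in cKO eggs, of which 14 of 15 were above every control. The log2 change of Psma5 was −1.15 in controls and 0.80 in cKO oocytes, both called, an interaction of 1.95 (SE 0.27, edgeR adjusted p 0.0296). Elobl (chromosome 11, 88964658 to 88966931) is named as a relative of elongin B, a subunit of ubiquitin ligases. It was at 1377 to 1870 CPM (median 1583) in GV controls and at 193 to 337 CPM (median 277) in MII controls, against 1139 to 1686 CPM (median 1509) and 746 to 1283 CPM (median 965) in cKO oocytes. It fell in both genotypes, with log2 changes of −2.45 and −0.41, and its interaction of 2.04 had one of the smallest errors of the 13 (SE 0.20, edgeR adjusted p 0.00468).

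Dppa5a, a KH-domain protein gene expressed in germ cells and pluripotent cells (chromosome 9, 78367052 to 78368177), was the only called gene that was higher in cKO oocytes at both stages. Its levels at GV were 264 to 469 CPM (median 282) in controls and 250 to 760 CPM (median 557) in cKO oocytes. At MII they were 6.28 to 16.3 CPM (median 9.18) and 15.4 to 119 CPM (median 59.6). It fell in both genotypes, with log2 changes of −4.97 in controls and −3.18 in cKO oocytes, and the interaction was 1.79 (SE 0.22, edgeR adjusted p 0.0114). Related copies of this gene exist in the mouse genome, so its counts are uncertain.

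Tm2d1 and Mtmr14 act at membranes. Tm2d1 (chromosome 4, 98355370 to 98383306) encodes a TM2-domain membrane protein. It was at 79.3 to 156 CPM (median 122) in GV controls and 62.9 to 124 CPM (median 91.9) in GV cKO oocytes. At MII it was at 30.7 to 65.7 CPM (median 54.7) in controls and 176 to 371 CPM (median 255) in cKO eggs. The genotypes moved in opposite directions, by −1.14 in controls and by 1.70 in cKO oocytes, and the interaction of 2.83 had the smallest p of all genes (SE 0.25, edgeR adjusted p 0.00259). Mtmr14, the gene of a phosphoinositide phosphatase (chromosome 6, 113237843 to 113281392), had medians of 1221 CPM in GV controls, 1103 in GV cKO, 497 in MII controls and 1261 in MII cKO oocytes. Its interaction was 1.54 (SE 0.24, edgeR adjusted p 0.0489).

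The remaining genes were E330017A01Rik and Gm17751. E330017A01Rik, annotated as protein-coding (chromosome 16, 58635167 to 58638739), had the largest interaction of the 13, 3.71 (SE 0.42, edgeR adjusted p 0.00759). It was at 1015 to 1753 CPM (median 1355) in GV controls and 33.2 to 73.4 CPM (median 59.0) in MII controls. In cKO oocytes it was at 689 to 1338 CPM (median 960) at GV and at 135 to 834 CPM (median 440) at MII, so that no cKO egg fell into the control range. Gm17751 is an intergenic noncoding RNA (chromosome 1, 76489133 to 76502028). Its control groups overlapped, with medians of 256 CPM at GV and 163 CPM at MII, while its cKO medians were 133 CPM at GV and 322 CPM at MII. Its interaction was 1.85 (SE 0.27, edgeR adjusted p 0.0397).

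**Figure D2:**
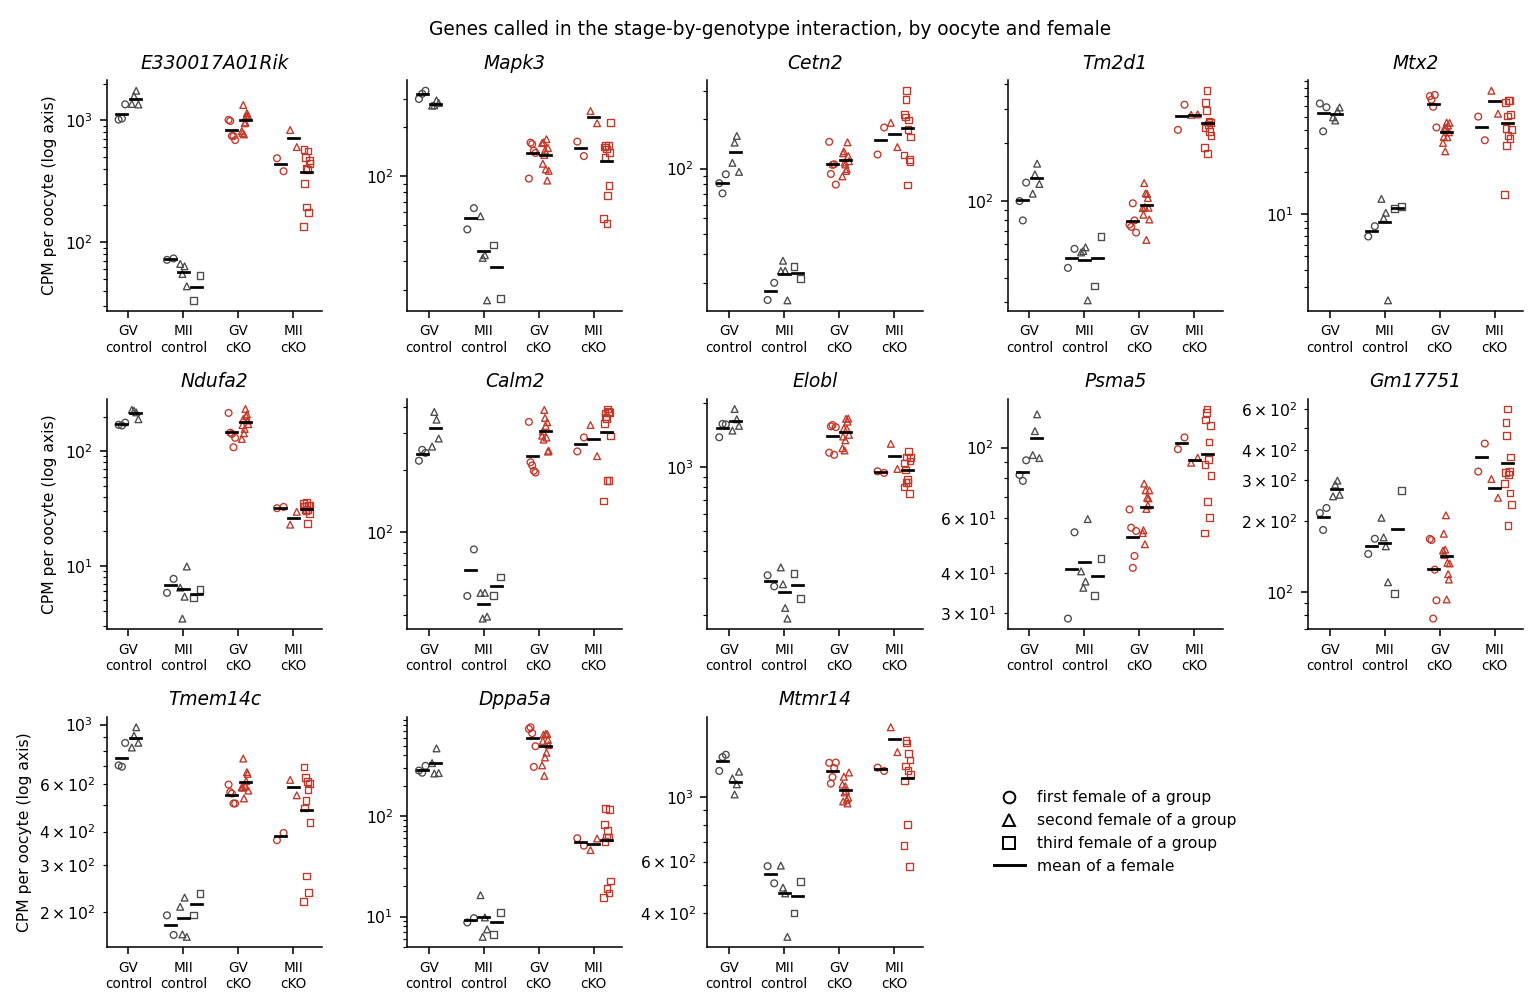
Each symbol is 1 oocyte, in CPM on a log axis, for the 13 called genes. Symbol shapes separate the females of a group and horizontal bars are the means of females. In 7 genes, E330017A01Rik, Cetn2, Tm2d1, Mtx2, Ndufa2, Calm2 and Elobl, MII cKO eggs and MII control eggs do not overlap, and in Mapk3 and Psma5 the GV oocytes of the genotypes do not overlap.

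Over all tested genes, MII cKO eggs lay above MII control eggs with no overlap in 1.68%, and GV cKO oocytes lay below GV controls with no overlap in 2.92%. The 13 genes were chosen on these same values, so their counts without overlap are a description.

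Within the MII cKO group the largest female, V897, was not uniform in the 13 genes. Its oocytes 1, 4 and 7, singled out after their values were seen, held the lowest 3 of its 11 values in 6 of the 13 genes and were all within the lowest 4 in 11, the exceptions being Ndufa2 and Elobl. For E330017A01Rik they were at 135 to 194 CPM against 301 to 574 CPM in the other 8, and for Mtmr14 at 578 to 807 CPM against 1134 to 1560 CPM. They were still above every MII control egg in 7 of the 13 genes. None of these counts was made over all genes, so they describe oocytes picked by these values. Their total counts, 7618125 to 8690379, lay within those of the other 8, and they had 16383 to 16802 detected genes against 16649 to 17916.

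Calls depended on single females more than values did. Leaving out each female in turn kept the interaction of all 13 genes above 0. E330017A01Rik, Cetn2, Tm2d1 and Elobl were called in all 10 such fits. Ndufa2, Calm2 and Dppa5a lost the call only without V889, a GV control, with edgeR adjusted p of 0.0701, 0.0932 and 0.0936. Mapk3 lost it in 4 fits (without V841, V853, V857 or V889), Psma5 and Gm17751 in 6, Tmem14c in 7, Mtx2 in 8 and Mtmr14 in 9, with edgeR adjusted p of at most 0.185. The number of calls was 4 without V889, 7 without V853, 8 without V841 and 804 without the GV cKO female V888, and 10 to 15 without any other. The females carry numbers from V836 to V857 and from V888 to V897, with all 4 groups in each range. Within each range the interaction of all 13 genes was positive. The genes were chosen for a positive interaction over these same females, so neither sign count is a sign of stability.

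The scaling changes the stage changes more than the interaction. With TMM factors the median change of all genes was −0.20 in controls and −0.24 in cKO oocytes, and with library totals it was −0.66 and −0.77. Of the genes called in controls 43.1% were higher at MII with TMM and 22.3% with totals, and of those called in cKO oocytes 45.2% and 21.6%. Of the genotype differences, 35.6% of the calls at GV were higher with TMM and 61.7% with library totals, and at MII 58.3% and 72.0%. The median interaction moved only from 0.10 to 0.02. The interactions of the 13 genes stayed between 1.47 and 3.63, and the small cKO changes of Mapk3, Mtx2, Calm2 and Mtmr14 took the opposite sign. The cKO rises of Cetn2 and Psma5 shrank from 0.64 and 0.80 to 0.11 and 0.27. The cKO change of E330017A01Rik went from −0.75 to −1.28.

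Adding the oocytes held for 3 h in culture (GV3h, 3 control and 3 cKO females) to the estimate of spread left the 4 groups of the interaction as they were but raised the calls to 373 of 19242 genes (1.94%). With these 16 females, 305 genes had a more positive change in cKO oocytes (1.59%) and 68 a more negative one (0.353%), the 13 genes among the former. Fits on single oocytes called 1484 and 803 of 15546 genes (9.55% and 5.17%), with oocytes of a female treated as independent, and limma voom, with a random effect for each female, called 464 and 84 (2.98% and 0.54%, together 3.53%). At GV, Mapk3 and Psma5, not called with 10 females, were called lower in cKO oocytes with 16 (log2 −1.19 and −0.78), as were 3.91% of all genes. At GV3h itself, Dppa5a was higher in cKO oocytes (0.90; 12.5% of genes were called higher), and Mapk3, Tm2d1, Psma5 and Gm17751 were lower, by log2 values of −0.52 to −1.14 (12.7% were called lower, 25.2% either way). The other 8 genes were not called at GV3h.

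Of the 305 genes, 257 fell in controls, where 25.7% of all genes fell in this fit. Of the 257, 116 also fell in cKO oocytes (26.6% of all genes did), 33 rose (18.1%) and 108 were not called. These counts share samples with the calls and describe them. A further 44 were not called in controls and rose in cKO oocytes, and 4 rose in both. The median change of the 305 was −2.29 in controls and −0.26 in cKO oocytes. Examples outside the 13 were named by the size rule that had named 10 of the 13, here applied after the values were seen. They were Uba6, a ubiquitin-activating enzyme, Chchd2, a mitochondrial regulator, and Cd69, a membrane protein of lymphocytes. Uba6 was at 12.4 to 87.4 CPM in GV controls, 45.8 to 109 in GV cKO, 0.35 to 14.2 in MII controls and 42.5 to 127 in MII cKO oocytes, an interaction of 3.81 (SE 0.75). The GV control females averaged 18.1 CPM (V856) and 74.2 CPM (V889) of Uba6, and without V889 its interaction among the other 9 females was 2.39. Chchd2 fell in both genotypes, with medians of 291 and 4.08 CPM in controls and of 296 and 39.0 CPM in cKO oocytes, an interaction of 3.44 (SE 0.53). Cd69 had medians of 10.2 and 6.25 CPM in controls and of 2.63 and 15.4 CPM in cKO oocytes, and its interaction was 4.21 (SE 0.85). It was not called as changed in controls, was lower in cKO oocytes at GV and rose in cKO oocytes.

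Of the 68 genes with a more negative change, 54 fell in cKO oocytes from GV to MII (26.6% of all genes), and in controls 24 rose (16.8%). At GV 33 were higher in cKO oocytes (3.47% of all genes) and at MII 32 were lower (6.99%). The 10 with the largest values at the expression minimum were Slc5a3, Id3, Pim3, Tmem170, Zmym5, Ptgfrn, Sac3d1, Mier1, Vrk3 and Ddx6. They include Slc5a3, a transporter of myo-inositol, Id3, an inhibitor of basic helix-loop-helix factors, and Ddx6, an RNA helicase of stored messenger ribonucleoproteins. Slc5a3 had medians of 16.5 CPM at GV and 19.8 CPM at MII in controls, and of 11.1 and 2.12 CPM in cKO oocytes, an interaction of −4.36 (SE 0.95). Ddx6 had medians of 30.2 and 33.4 CPM in controls and of 42.8 and 12.8 CPM in cKO oocytes, an interaction of −2.85 (SE 0.61).

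These negative values moved with 1 female. In GV cKO, V857 averaged 109 CPM of Slc5a3, 104 CPM of Id3 and 131 CPM of Ddx6, and V888 averaged 10.6, 23.2 and 39.0 CPM. All 10 of these genes were higher in V857, as were 53 of the 68 (77.9%), beside 50.6% of all tested genes. At least 2 times higher in V857 were 27 of the 68 (39.7%), beside 14.1% of all. Without V857 the median interaction of the 68 was −1.97 in place of −2.70. All 68 kept their sign, as did 83.9% of all tested genes, which were not chosen by it. Single values moved further towards 0, to −1.86 for Slc5a3, −1.36 for Ptgfrn, −1.75 for Ddx6 and −2.72 for Id3 (−4.15 with V857). Of the 305 genes, 78 (25.6%) were higher in V857.

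The interaction is next described by gene lists of known function, with no test of a list. Counts use an unadjusted p under 0.05 (7.43% of all tested genes positive, 5.0% negative) and calls with 16 females (1.59% and 0.353%), beside the list's median and the median over all genes of 0.10. Among lists with at least 10 tested genes the highest median belonged to the nuclear-encoded respiratory chain and ATP synthase, 0.59 over 87 genes. Of these, 27 (31.0%) were positive and 1 negative at the unadjusted threshold, and 13 and 0 were called with 16 females. The called genes were Ndufa2, Ndufa5, Ndufa9, Ndufa12, Ndufb3, Ndufb9, Ndufc2, Ndufs5, Ndufs7 and Ndufv1 of complex I and Cox6a1, Cox7b and Cox7c of complex IV. Cox7b fell in both genotypes, with medians of 144 and 4.30 CPM in controls and of 190 and 22.6 CPM in cKO oocytes, and with an interaction of 2.41 (SE 0.36). Ndufb3 fell from a median of 49.3 to 7.27 CPM in controls, while its cKO medians were 45.4 CPM at GV and 44.1 CPM at MII. In these polyA libraries the list fell steeply in both genotypes, with medians of −3.03 in controls and −2.35 in cKO oocytes. Its summed level was 6272 to 8162 CPM in GV controls, 5127 to 9712 in GV cKO, 1789 to 2855 in MII controls and 2397 to 3715 in MII cKO oocytes.

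The other lists are given by function and not by rank, first those of the protein synthesis and degradation machinery. The 86 cytosolic ribosomal protein genes had a median of 0.49, with 12 positive (14.0%) and 1 negative at the unadjusted threshold and Rpl34, Rpl39, Rps3, Rps9 and Rps19 called. They fell in both genotypes, with medians of −3.27 in controls and −2.87 in cKO oocytes. Many ribosomal protein genes have pseudogene copies that can take reads. Among 36 proteasome genes the median was 0.31. Psma5, Psmb2, Psmb4, Psmb7, Psmc6 and Psmd5 were called positive, and Psmb3 and Psmd9 were called negative. Psmb3 had medians of 18.7 and 26.7 CPM in controls and of 28.8 and 13.7 CPM in cKO oocytes.

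Maternal-effect and egg genes formed the next groups. The subcortical maternal complex, a protein assembly under the egg membrane needed for cleavage, and its Nlrp relatives had a median of 0.57 over 17 genes. Of these 7 (41.2%) were positive and 0 negative at the unadjusted threshold, and Khdc3, Ooep, Nlrp14 and Nlrp9c were called with 16 females. Khdc3 fell in both genotypes, with medians of 2109 and 111 CPM in controls and of 1928 and 465 CPM in cKO oocytes. Nlrp14 fell from a median of 5698 to 2411 CPM in controls, while its cKO medians were 4904 and 6880 CPM. Nlrp9c was not called as changed in controls, with medians of 796 and 828 CPM, and rose in cKO oocytes from 379 to 858 CPM. The median change of the 17 genes was −0.11 in controls and 0.38 in cKO oocytes. Their median genotype difference was −0.53 at GV, where 3 were called lower in cKO oocytes (2.04% of all genes were). At MII it was 0.13, with 4 called higher (7.07% of all genes). The summed level of the list at MII was 17250 to 22065 CPM in control eggs and 22445 to 28675 CPM in cKO eggs, with no overlap, and at GV the ranges overlapped. Its GV cKO levels differed between females, Nlrp14 averaging 8080 CPM in V857 and 4622 CPM in V888.

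Among 23 genes of oocyte growth, the zona pellucida and the egg surface the median was 0.42, with 8 positive (34.8%) and 1 negative at the unadjusted threshold. Zp2, a zona protein that binds sperm, Bmp15, a growth factor for follicle cells, and Izumo1r, the egg receptor Juno, were called. Zp2 fell in both genotypes. Control oocytes held 2106 to 4002 CPM at GV and 310 to 709 CPM at MII, and cKO oocytes held 2771 to 6666 CPM and 646 to 2502 CPM. Bmp15 was not called as changed in controls, with medians of 3048 and 3040 CPM, and rose in cKO oocytes from 2954 to 5079 CPM. The lowest MII cKO egg held 4557 CPM of Bmp15 and the highest MII control egg 4256 CPM. Zp3, with an interaction of 1.30 (SE 0.43), was not called.

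Genes that handle poly(A) tails and stored messages were split. Among 21 genes of poly(A) synthesis and binding the median was 0.43, with 6 positive (28.6%) and 0 negative at the unadjusted threshold. Paip2 and Paip2b, inhibitors of poly(A)-binding protein, Cpsf3, the cleavage endonuclease, and Tent5c, a poly(A) polymerase, were called. Paip2 fell in controls, from 539 to 907 CPM at GV to 98.6 to 174 CPM at MII. In cKO oocytes it was at 408 to 654 CPM and at 150 to 561 CPM. The 29 genes of message storage and translation control had a median of 0.06 (−0.01 with library totals), with Cpeb1, Rbpms2 and Ybx2 called positive and Ddx6 negative. Cpeb1, which binds the cytoplasmic polyadenylation element, fell from a median of 1025 to 334 CPM in controls and had medians of 790 and 778 CPM in cKO oocytes.

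Several functions of maturation showed no called interaction. The 17 messages known to be translated on maturation had a median of 0.17, with 0 positive and 1 negative at the unadjusted threshold. They rose in both genotypes, 15 of 17 in controls (16.6% of all genes) and 16 of 17 in cKO oocytes (17.9%). For example, the interaction was 0.18 (SE 0.21) for Ccnb1, the cyclin of Cdk1, 0.11 (SE 0.27) for Mos and −0.31 (SE 0.27) for Btg4, an adaptor of deadenylation. The 31 genes of deadenylation and clearance had a median of 0.08, with 2 positive and 3 negative. With library totals this median was 0.003 and that of the messages translated on maturation 0.10, beside 0.02 over all genes. Cnot7, a deadenylase, had an interaction of 0.60 (SE 0.34). The 23 genes of the exosome and its cofactors had a median of 0.24, with 2 positive and 6 negative and 0 called. Exosc10 itself had −2.05 (SE 0.73, edgeR adjusted p 0.284), from cKO levels near 0 at both stages. A p over the threshold does not show that these genes changed alike.

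Within the 29 genes of the spindle checkpoint and Aurora kinases (median 0.24), Birc5 and Spc25 were called positive and Cdca8 negative. Birc5 and Cdca8 encode survivin and borealin, subunits of the chromosomal passenger complex, and moved apart. Birc5 fell from a median of 517 to 113 CPM in controls, with cKO medians of 500 and 281 CPM. Cdca8 rose in both, with medians of 303 and 744 CPM in controls and of 339 and 488 CPM in cKO oocytes. Among 34 chaperone and stress genes (median 0.12), the endoplasmic reticulum chaperones Hspa5, Hsp90b1, Calr and Pdia3 and the stress factor Atf4 were called positive, and the stress kinase gene Eif2ak3 negative. Hspa5 was at 244 to 490 CPM in GV controls, 451 to 1393 in GV cKO, 125 to 263 in MII controls and 579 to 1296 in MII cKO oocytes, so cKO and control eggs did not overlap.

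**Figure D3:**
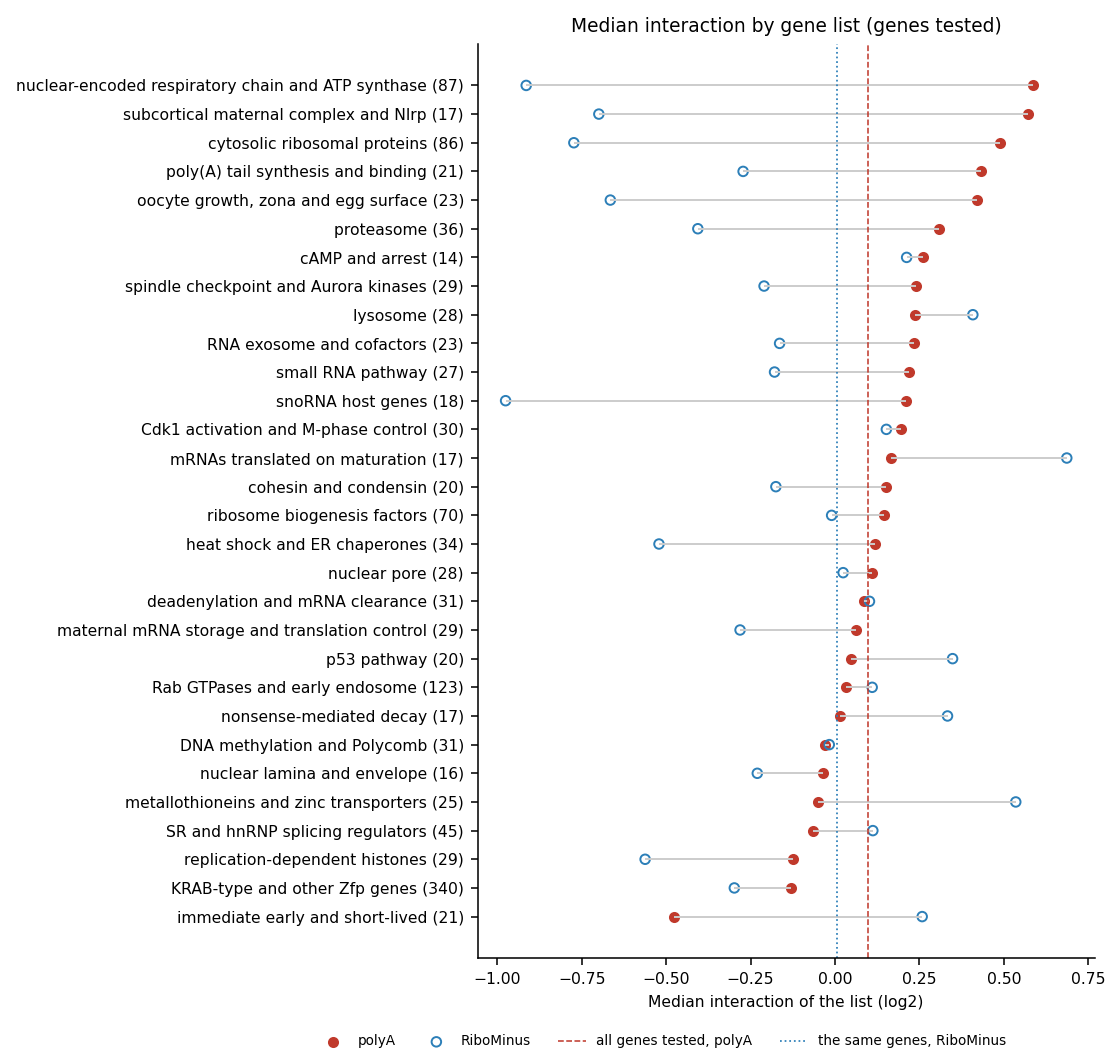
Median interaction (log2) of each of 30 gene lists with at least 10 tested genes, in polyA libraries (filled) and RiboMinus libraries (open), with the number of genes tested in polyA in parentheses. Vertical lines are the medians over all genes, and the 6 lists with the highest polyA medians, from 0.31 to 0.59, all have RiboMinus medians below 0. Many other lists do too, so this is not particular to those 6. Among lists with a polyA median below 0, some have a RiboMinus median below 0, such as Zfp genes (−0.13 and −0.30). Others have one above 0, such as immediate early genes (−0.48 and 0.26).

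RiboMinus libraries, made with random primers after removal of ribosomal RNA and without selection for a tail, allowed the same contrast in other oocytes and females. They held 8 control oocytes of 2 females and 7 cKO oocytes of 2 females at GV, and 3 control eggs of 1 female (V1145) and 4 cKO eggs of 2 females (V1166 and V1167) at MII. With 1 control female at MII, stage and female cannot be told apart in controls, and the test assumes that female to vary like the others. The interaction was called for 0 of 25425 genes by edgeR's quasi-likelihood test (0.0%), with 3611 at an unadjusted p under 0.05 (14.2% of genes, made up of 7.81% positive and 6.4% negative). DESeq2 on the same sums called 1127.

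The 13 genes had the opposite sign in RiboMinus libraries. Their interaction was below 0 in 12 of 13, with a median of −0.77, where 49.7% of the 17902 genes tested in both library types were below 0, with a median of 0.01. At an unadjusted p under 0.05, 4 of the 13 were negative, where 6.4% of all genes were. These 4 were Cetn2 at −1.54 (SE 0.39), Psma5 at −1.62 (SE 0.64), Mapk3 at −1.03 (SE 0.39) and Calm2 at −0.73 (SE 0.31). Dppa5a was the exception at 0.08 (SE 0.85).

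The control stage change differed most between the library types. In RiboMinus controls 11 of the 13 were higher at MII by the fitted value, with a median of 0.61, where the polyA median was −2.26. Over all genes tested in both library types the RiboMinus control median was −0.09, and the share above 0 was not counted. The libraries of V1145, the only MII control female, averaged 17881 detected genes, beside 20802 to 22978 in the other RiboMinus groups. The part of this in the values was not tested. In RiboMinus cKO oocytes 4 of 13 were above 0, with a median of −0.44, beside −0.04 over all genes. The polyA cKO median of the 13 was 0.15 (−0.38, the value of Calm2, with library totals). In RiboMinus libraries Mapk3 was at 116 to 158 CPM (median 134) in GV controls and at 279, 323 and 354 CPM in the 3 MII control eggs. GV cKO oocytes held 81.9 to 166 CPM (median 112) and MII cKO eggs 108 to 191 CPM (median 122). Cetn2 was at 18.8 to 66.6 CPM in GV controls, 114 to 138 in MII controls, 28.8 to 72.7 in GV cKO and 25.4 to 73.0 in MII cKO oocytes. In both genes MII controls were above all other groups here, and in polyA libraries they had the lowest median. The share of all genes with this order was not counted, and the 3 MII control eggs are of 1 female.

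**Figure D4:**
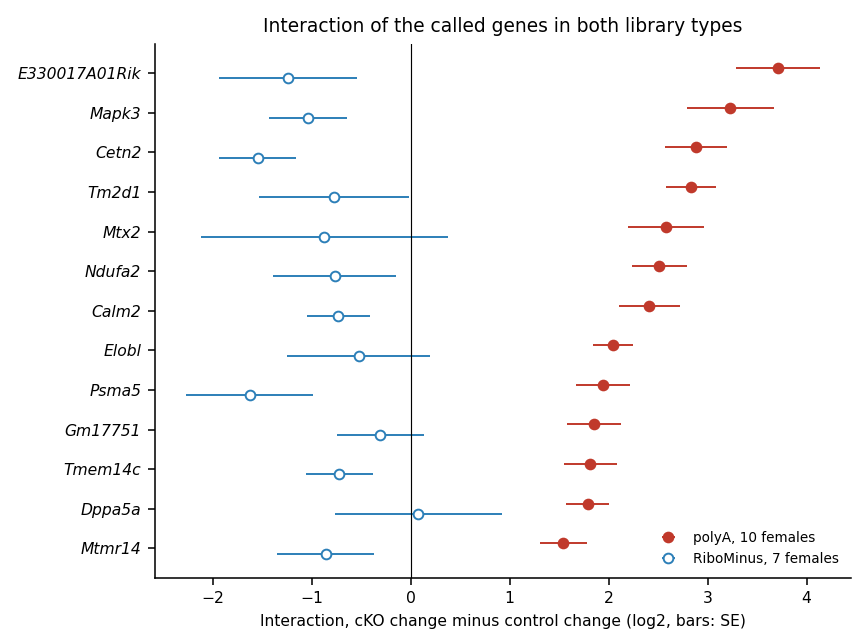
Interaction (log2, cKO change minus control change) of the 13 called genes with its standard error, in polyA libraries (10 females, filled) and in RiboMinus libraries (7 females, open). All polyA values lie between 1.54 and 3.71, and the RiboMinus values lie below 0 except that of Dppa5a at 0.08.

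The MII cKO females of the RiboMinus libraries differed from each other. V1166 was below V1167 in each of the 13 genes, for example at 106 against 381 CPM for E330017A01Rik, 6.80 against 30.2 CPM for Tm2d1 and 2.45 against 22.2 CPM for Mtx2. The share of all genes lower in V1166 was not counted, so the difference may not be particular to the 13. The 2 libraries of V1166 held 20678209 and 62675760 counts, those of V1167 24804214 and 25149258. Without V1166, 10 of the 13 interactions were below 0 with a median of −0.59, and without V1167 all 13 were, with a median of −1.43. Leaving out each GV female in turn left 12 or 13 below 0.

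In the wider set the signs differed by direction. Of the 305 genes called positive with 16 polyA females, 229 (75.1%) were below 0 in RiboMinus libraries, with a median of −0.67, an opposite sign. Of the 68 called negative, 40 were below 0 (58.8%), the same sign, with a median of −0.45. Without V1166 the count for the 305 was 202 (66.2%) and without V1167 242 (79.3%). Without V1131, a GV cKO female, 33 of the 68 were below 0, with a median of 0.10. Over all 17902 genes the interactions of the library types had a Spearman rho of 0.05, given as a description. Over the list genes tested in both library types, the RiboMinus median was −0.91 for the respiratory chain, −0.77 for ribosomal proteins, −0.70 for the subcortical complex and Nlrp genes, −0.67 for growth and zona genes, −0.41 for the proteasome and −0.27 for poly(A) synthesis and binding. Single females moved these medians, taken over all list genes tested in RiboMinus libraries. Without V1166 and without V1167 they were −0.69 and −1.40 for the respiratory chain and −0.39 and −1.41 for the subcortical complex and Nlrp genes. For the proteasome they were −0.24 and −0.85. The chaperones Hspa5, Hsp90b1, Pdia3 and Calr had −1.81, −1.27, −1.63 and −0.84. The steep polyA fall of 2 lists was not seen in RiboMinus controls, with 1 MII control female. There the median stage change was 1.09 for the respiratory chain and 0.48 for ribosomal proteins, and in cKO oocytes −0.10 and −0.36.

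The called genes tended to have short transcripts. The longest coding transcript (for Gm17751 the longest transcript) in GENCODE M21 had a median of 1205 nt over the 13, of 1725 nt over the 305, and of 2665 nt over all tested genes, and 11 of the 13 were under the last value. Genes that fell in controls had a median of 1984 nt and genes that rose 3372 nt, so length also moved with the control change. The part of length in the interaction was not tested. Ndufa2 overlaps Tmco6, Psma5 overlaps 1700010K24Rik and Mtmr14 overlaps Gm16161 on opposite strands, Mtx2 overlaps Gm14425 and Gm17751 overlaps Gm29069 on the same strand. Whether the counting used strand is not given in the sources used here, so reads of these pairs cannot be told apart.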

How the data were processed

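The deposited files hold raw read counts per Ensembl gene, 1 file per oocyte, made by the authors. Per the submitters' processing notes, cutadapt 2.5, STAR 2.7.2a, SAMtools 1.9 and HTSeq 0.9.1 were used with mm10, with no role or order stated. The annotation release, strand setting and duplicate handling are not given in the sources used here. Per the labels' protocols, spike-in RNA was added, but the gene files have 0 spike-in lines. Summary lines were left out, and 5.85% to 14.2% of reads per polyA library were listed there as lying on no counted feature.

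Counts were summed per female and tested with edgeR 4.0.16 in R 4.3.3 (filterByExpr, TMM, quasi-likelihood test, two-sided, 1 coefficient per stage and genotype, Benjamini-Hochberg over all tested genes). P-values measure the spread between females. Named genes were the called ones with at least 2 CPM in every group, 20 CPM in 1 group and 1 sign in every leave-one-out fit, up to 10 per direction. This named 10. Tmem14c, Dppa5a and Mtmr14, called but outside those 10, were named after their values were seen. Genes of the lists could be named. Members and lists were chosen with earlier results of these data known. Symbols and positions came from GENCODE M21, which is on the same build, for 55394 of 55573 identifiers. Alternatives were DESeq2 1.42.0, limma 3.58.1 voom with a female block, single oocytes, other scalings and filters, all 6 polyA groups in one fit, a covariate for the range of female numbers, and leaving out each female. The edgeR steps were tested on simulated data. The 22 rRNA files were not used here. Values of a few related genes are not reported here.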

Additional observations from a re-analysis of the deposited data

Results flagged for a closer look

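The stage change of these 13 genes differed between genotypes by the interaction test itself (edgeR adjusted p under 0.05, 10 females), with log2 values of 3.71 for E330017A01Rik, 3.23 for Mapk3, 2.88 for Cetn2, 2.83 for Tm2d1, 2.58 for Mtx2, 2.51 for Ndufa2, 2.41 for Calm2, 2.04 for Elobl, 1.95 for Psma5, 1.85 for Gm17751, 1.82 for Tmem14c, 1.79 for Dppa5a and 1.54 for Mtmr14. Of 28 groups of 4 to 10 polyA oocytes examined for a value far from the rest, 2 held one, both of Dppa5a. The GV and MII cKO groups, of 15 oocytes each, exceed this size and were not examined. They were GV control oocyte V889_3 at 468.5 CPM and MII control oocyte V853_1 at 16.29 CPM. Chance alone gives such a value in about 1 of 20 groups.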

How the results depend on the processing

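No paired analysis was possible because each female gave oocytes of 1 stage and 1 genotype and no number is shared between groups. The interaction count of 13 was 691 with DESeq2, 690 with no filter on low counts, 2287 with single oocytes, 373 with all 6 polyA groups and 548 with voom and a female block, and 4 to 804 with a female left out. It was 11 with DESeq2 size factors, 12 with library totals, 12 with a mean of at least 50 counts and 14 with the number range as a covariate. All 13 genes were called with DESeq2, single oocytes, all 6 groups and no filter. With voom Dppa5a was lost, with the mean of at least 50 counts Mtmr14, with the covariate Mtx2, and with size factors or library totals both Mtx2 and Mtmr14. The control change gave 4590 to 7227 calls with a female left out. The cKO change gave 10986 calls with single oocytes and 5314 to 7577 with a female left out. The genotype difference at GV (570 calls) gave 1997 with DESeq2, 1559 with no filter, 5024 with single oocytes, 1420 with all 6 groups, 2583 with voom, and 4 (without V889) to 1260 (without V888) with a female left out. The genotype difference at MII (2185 calls) gave 3680 with DESeq2, 5842 with single oocytes, 3644 with all 6 groups and 961 to 2818 with a female left out. The RiboMinus interaction gave 1127 with DESeq2, 1072 with no filter, 2837 with single oocytes and 0 to 5 with a female left out. The polyA interactions of the 13 genes stayed above 0 under each of these, while RiboMinus signs changed for some of them with a female left out. The causes of these differences were not tested, except that single oocytes count each of the same libraries as a unit and that all 6 groups add libraries to the estimate of spread. Whether depth or the number of females limits the calls was not tested.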

Other observations

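Immediate early and Zfp genes had the lowest median interactions of the lists with at least 10 tested genes. The 21 immediate early genes had a median of −0.48, with 1 positive and 2 negative at an unadjusted p under 0.05. With 16 females, Ier2 was called negative (−4.68, SE 1.08). Its median was 2.31 CPM in GV controls, 9.84 in GV cKO, 1.86 in MII controls and 0.94 in MII cKO oocytes, and it averaged 44.7 CPM in V857 and 9.51 CPM in V888. The 340 Zfp genes had a median of −0.13, with 16 positive and 30 negative at that threshold. With 16 females, Zfp277 and Zfp383 were called positive (1.88 and 1.28), and Zfp768, Zfp668, Zfp367, Zfp715 and Zfp217 negative (−5.19, −4.65, −3.44, −2.77 and −1.70). Without V857, a GV cKO female, the value of Zfp668 among the other 9 females was −2.99 and that of Ier2 was −3.12. Zfp768 and Zfp668 were low in every group, with medians of at most 3.48 CPM. The 7 tested mitochondrially encoded genes had a median of −0.34, with 1 negative at that threshold. They rose in both genotypes, all 7 of 7 called in each, where 16.6% of all genes rose in controls and 17.9% in cKO oocytes.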
